A study of Homo sapiens with 24 samples.

Results

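HCT116 cells, a human colorectal carcinoma line (HCT-116 in the labels), were compared after exposure to the splicing modulator E7107 between cells expressing WT PHF5A (n = 6) and cells expressing the Y36C mutant of PHF5A (n = 6). These are 12 of the 24 samples of the series. The other 12 are the same pair of cell populations given the solvent DMSO (6 each), and they serve below as the level without drug. Both populations overexpressed PHF5A in the parental line, so the cells' own PHF5A gene was present in every group. The study's methods give an exposure of 6 h and name a pair of E7107 concentrations. The study's account of this comparison gives the lower of them, and the labels give none. All rows of the splicing tables were taken, 1823643 in each sample after rows without a strand or on the mitochondrial chromosome were left out. At 842655 of them the splice site had reads in all 12 samples. The labels number the samples of a group from 1 to 6 without saying that they were separate cultures, so the p-values measure the spread between these samples, which may be technical.

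PHF5A is a small zinc-finger protein of SF3b, the part of the U2 snRNP that recognises the branch point adenosine of an intron during early spliceosome assembly. It sits against SF3B1, and the pocket between them receives the branch point. E7107, a derivative of pladienolide, occupies that pocket and hinders the definition of 3′ splice sites. When a 3′ splice site is not defined, the intron ahead of it can stay in the RNA (intron retention) or the site can be passed over for a later one, so that the exon is left out (exon skipping).

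The measured quantity is percent spliced in (PSI), the share of the reads at a splice site that belong to each of its outcomes. An outcome is either a spliced junction or a read that runs across the exon-intron boundary, which marks a retained intron. The outcomes of a site add up to 100%, so a boundary that loses reads raises the PSI of the junctions beside it. The tables hold percentages and no read counts, so the depth behind a value is unknown. Sites with reads numbered 281164 to 283548 in the WT E7107 samples, 328458 to 331604 in the Y36C E7107 samples and 336249 to 340081 in the DMSO samples. Of 254719 sites read in all 12 DMSO samples, 92.8% ± 0.189 had reads in WT and 99.0% ± 0.0463 in Y36C cells under drug (exact permutation test, p = 0.00216). In such bulk samples fewer cells and less RNA per cell cannot be told apart. Splice sites of the epithelial genes EPCAM, CDH1, KRT8 and KRT18 were read in every group, while the intestinal markers VIL1 and CDX1 were nearly or wholly absent, with 1 and 0 annotated sites listed. A further one, CDX2, had 4 listed sites, read at 79.2% in WT cells under E7107 and at 100% in the other groups. The blood, endothelial and glial markers PTPRC, CD3E, PECAM1 and GFAP had no listed site. Of the fibroblast genes, COL1A2 had none either, and COL1A1 was read at 97.2% to 99.1% of its 96 sites in each of the 4 groups.

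Under E7107, intron retention was far lower in Y36C than in WT cells, and exon skipping was higher. Over the 202775 boundaries read in all 24 samples, mean PSI ran from 16.5% to 19.1% in WT cells (median 18.1%) and from 7.78% to 8.05% in Y36C cells (median 7.87%). No Y36C sample came near the WT range. The group means were 17.9% ± 0.889 and 7.90% ± 0.106 (SD, n = 6 each), beside 5.99% ± 0.143 and 5.83% ± 0.115 in the WT and Y36C DMSO samples. The difference of -10.0 percentage points exceeded the spread between samples (exact permutation test, two-sided, p = 0.00216, the smallest these groups allow, adjusted p = 0.00244 over 9 comparisons). With the median over boundaries in place of the mean it was -5.25 points (exact permutation test, p = 0.00216). Under DMSO the same comparison gave -0.156 points and p = 0.0628 (exact permutation test). By end it gave -0.149 points at 5′ and -0.162 at 3′ splice sites (exact permutation tests, p = 0.0455 and 0.0736, not adjusted).

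**Figure D1:**
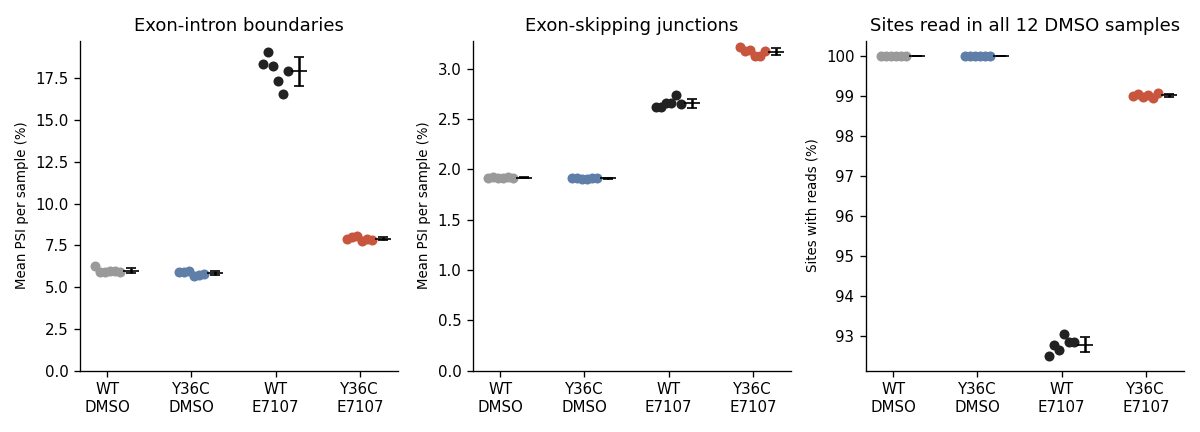
Mean PSI of exon-intron boundaries (left, %), mean PSI of exon-skipping junctions (middle, %) and the share of splice sites that still had reads among those read in all 12 DMSO samples (right, %, axis not starting at 0). Points are single samples and bars the mean and SD of 6 samples; the Y36C E7107 samples lie between the DMSO and WT E7107 samples for boundaries, at 7.78% to 8.05%, and above all other groups for skipping, at 3.12% to 3.22%.

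The mean PSI of 186098 exon-skipping junctions moved the other way. It ran from 2.62% to 2.74% in WT cells and from 3.12% to 3.22% in Y36C cells, with no overlap. The means were 2.66% ± 0.0434 and 3.17% ± 0.0352 (n = 6 each, exact permutation test, p = 0.00216, adjusted p = 0.00244), and both lay above the DMSO means of 1.92% and 1.91%. The difference was 0.51 points. With the median over junctions it was 0 (exact permutation test, p = 1.0), and over junctions with a mean PSI of at least 5% it was 2.42 points. Skipping across junctions that the annotation does not list did not differ beyond the spread (1.39% ± 0.0309 in WT and 1.41% ± 0.0314 in Y36C cells, exact permutation test, p = 0.225). Under DMSO, Y36C minus WT was -0.00745 points over all skipping junctions and -0.00919 over those not annotated (exact permutation tests, p = 0.0216 and 0.00433, not adjusted). Junctions to unannotated 3′ splice sites averaged 0.538% ± 0.0122 in WT and 0.665% ± 0.00745 in Y36C cells, and those to unannotated 5′ splice sites 0.664% ± 0.0123 and 0.841% ± 0.00844. In both cases the Y36C mean was above the DMSO means (0.632% and 0.630% at 3′ sites, 0.792% and 0.789% at 5′ sites) and the WT mean was below them.

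The 3 outcomes at a 3′ splice site were set side by side over 53973 acceptors. Retention took 16.4% ± 0.827 in WT and 6.66% ± 0.112 in Y36C cells, and 4.81% in WT cells given DMSO. All other spliced junctions at the acceptor together took 79.2% ± 0.797 and 88.1% ± 0.142. Skipping took 4.44% ± 0.0442 and 5.23% ± 0.0499, and 3.17% and 3.16% in WT and Y36C cells given DMSO. Retention in Y36C cells was thus closer to the DMSO level than to that of WT cells under drug. Skipping in Y36C cells was further above the DMSO level than in WT cells.

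Row by row, limma on the log odds of PSI called 69553 of 110503 boundaries lower in Y36C than in WT cells with an adjusted p of at most 0.05 (62.9% of those tested) and 12954 higher (11.7%). Boundaries at 5′ and at 3′ splice sites were called in like shares, 64.4% and 61.6% lower and 10.9% and 12.5% higher. The boundaries called lower had a median of group means of 25.6% in WT and 1.60% in Y36C cells, next to 1.22% and 1.03% under DMSO. Of 69232 such boundaries with reads in every sample, the Y36C mean under E7107 was within 2 percentage points of the Y36C DMSO mean at 73.5%, and the WT mean was that close to its own DMSO mean at 5.30%. The same genotype comparison under DMSO called 300 of 81226 boundaries in either direction (0.369%). A test of the difference between the genotype effects with and without drug, fitted over all 24 samples, called 63310 of 115221 boundaries more negative under E7107 (54.9%) and 10330 more positive (8.97%). It included 62409 of the 69553 lower boundaries and 9075 of the 12954 higher ones.

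The boundaries called higher in Y36C cells had lower WT values than either DMSO group. Their medians were 4.11% in WT and 17.2% in Y36C cells under E7107, against 7.80% and 8.17% under DMSO. At 24.0% of 12883 of them all 6 Y36C samples exceeded all 12 DMSO samples. At 10.8% all 6 WT samples fell under all 12 DMSO samples. Lower and higher boundaries also met within genes: of 6564 genes with at least 4 tested boundaries, 3982 had only lower calls (60.7%), 764 only higher calls (11.6%), 1708 both (26.0%) and 110 neither.

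Exon-skipping junctions were here those that join annotated sites of a gene across at least 1 internal exon of its Ensembl canonical transcript. Of 17058 tested, 8149 were called higher in Y36C cells (47.8%) and 3405 lower (20%), against 89 of 10967 called in either direction under DMSO (0.812%). Other spliced junctions were called higher in Y36C cells at 52357 of 118519 (44.2%) and lower at 17621 (14.9%). Because lower retention raises every junction at a site, the shares were also taken among spliced reads only, an alternative chosen after seeing the data. The skipping calls then kept 6057 of 8133 higher (74.5%) and 3226 of 3405 lower (94.7%). The other spliced junctions kept 11513 of 52041 higher (22.1%) and 8578 of 17616 lower (48.7%). Of the annotated junctions that skip no exon of the canonical transcript, 15164 of 112058 were lower and 9963 higher among spliced reads. This was the opposite order to their PSI (17061 lower and 49659 higher of 112516).

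At 9825 acceptors both a skipping junction and the boundary could be tested. Skipping was higher and retention lower in Y36C cells at 2352 of them (23.9%), which lie in 1666 genes. Skipping was lower together with retention at 2261, skipping and retention were both higher at 811, and skipping lower with retention higher at 106. Retention was lower at 62.9% of all these acceptors and at 51.8% of those where skipping was higher.

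MCL1, the anti-apoptotic BCL2 family member whose short form lacks an exon of 248 bases, changed in both respects. Its 4 boundaries had a mean PSI of 72.2% to 75.8% in WT cells (median 74.5%) and of 3.06% to 5.65% in Y36C cells (median 4.80%). All WT samples thus carried mostly unspliced reads at these sites and no Y36C sample did. The means were 74.2% ± 1.25 and 4.64% ± 1.05, with 3.06% and 2.78% under DMSO (limma, adjusted p = 7.0e-13). The junction that skips the 248-base exon had a PSI of 28% to 37% in WT cells (median 32.7%) and of 1.62% to 3.89% in Y36C cells (median 2.85%), read at the acceptor of the exon after it. Skipping was therefore also lower in the mutant, by 29.7 points (limma, adjusted p = 1.15e-08), and DMSO samples averaged 1.08% and 0.802%. Among spliced reads at that acceptor, skipping took 79.0% in WT and 2.94% in Y36C cells. The junction that includes the exon rose from 8.58% ± 1.21 to 93.5% ± 2.03 there. The exon is shown in capitals with 40 intron bases before it and 10 after it (GRCh37, chr1:150550710-150551007, minus strand).

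MCL1 exon of 248 bases: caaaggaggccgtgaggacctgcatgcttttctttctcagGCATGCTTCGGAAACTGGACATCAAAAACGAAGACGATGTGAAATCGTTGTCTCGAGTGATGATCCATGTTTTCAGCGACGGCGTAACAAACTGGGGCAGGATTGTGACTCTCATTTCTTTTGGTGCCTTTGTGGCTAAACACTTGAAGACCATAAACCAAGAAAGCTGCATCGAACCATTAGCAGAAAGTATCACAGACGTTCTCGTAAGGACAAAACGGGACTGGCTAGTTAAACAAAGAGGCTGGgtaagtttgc

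RBM5, an RNA-binding splicing regulator, showed lower retention, and its skipping junctions went both ways, 4 of 7 tested lower and 2 higher in Y36C cells (median of the 7 differences -7.00 points). Mean boundary PSI ran from 63.3% to 69.9% in WT cells (median 67.0%) and from 15.1% to 19.3% in Y36C cells (median 17.9%), without overlap. The means were 66.7% ± 2.30 and 17.6% ± 1.68 (limma, adjusted p = 7.1e-12), above the DMSO means of 8.84% and 8.29%. Of its 48 tested boundaries 45 were lower and 0 higher. The junction that skips an exon of 85 bases had a PSI of 4.55% to 17.1% in WT cells (median 13.2%) and of 51.3% to 71.1% in Y36C cells (median 61.6%), and the one that skips an exon of 61 bases 13.2% to 19.4% (median 19.1%) and 52.9% to 75% (median 67.3%). Every Y36C sample was above every WT sample at both exons (limma, adjusted p = 5.18e-06 and 1.83e-07), and the DMSO means were 10.7% and 11.7% at the 85-base exon and 12.2% and 10.4% at the 61-base exon. Among spliced reads these junctions took 38.8% and 51.5% in WT cells and 72.6% and 75.6% in Y36C cells. Among the lower ones, a junction across 2 exons (chr3:50150978-50152860, read at its donor) took 22.1% ± 5.86 in WT and 0.362% ± 0.887 in Y36C cells and was at 0 in all DMSO samples (limma, adjusted p = 2.63e-07). It was also at 0 in some Y36C samples and entered the test through WT cells alone.

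CDK10, a cyclin-dependent kinase, kept much of its retention in Y36C cells. Its mean boundary PSI ran from 49.6% to 53.2% in WT cells (median 52.3%) and from 38.0% to 40.7% in Y36C cells (median 39.2%), and the DMSO means were 29.5% and 32.3%. The groups did not overlap (51.8% ± 1.5 and 39.3% ± 1.30, limma, adjusted p = 2.14e-07). Of 26 boundaries 15 were lower and 7 higher. The donor boundary at chr16 position 89758925, for example, fell from 50.4% ± 6.90 to 2.40% ± 0.898, while that at position 89761197 rose from 63.7% ± 8.27 to 86.0% ± 2.44, with DMSO means of 51.0% and 62.4% there. The junction that skips its exon of 103 bases was at 0 to 1.30% in WT cells (median 0) and at 16.5% to 22.8% in Y36C cells (median 21.7%), and DMSO samples averaged 0 and 0.344% (limma, adjusted p = 1.01e-08). At this junction skipping was seen almost wholly in the mutant under drug. With a PSI of 0 in some WT samples, the junction entered the test through Y36C cells alone. Skipping of its 73-base exon from one of its donors averaged 0.794% in WT and 25.9% in Y36C cells, with DMSO means of 12.3% and 9.19%. This junction, too, was at 0 in some WT samples and entered the test through Y36C cells alone.

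The skipped exons of RBM5 and CDK10 are printed in the same form as that of MCL1, exon in capitals, because they were skipped more in the mutant while that of MCL1 was skipped less. They lie at chr3:50141641-50141751, chr3:50147772-50147906 and chr16:89757811-89757963 of GRCh37, all on the plus strand.
RBM5 exon of 61 bases: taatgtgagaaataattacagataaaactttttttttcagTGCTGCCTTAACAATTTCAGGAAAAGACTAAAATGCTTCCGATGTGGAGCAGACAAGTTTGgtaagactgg
RBM5 exon of 85 bases: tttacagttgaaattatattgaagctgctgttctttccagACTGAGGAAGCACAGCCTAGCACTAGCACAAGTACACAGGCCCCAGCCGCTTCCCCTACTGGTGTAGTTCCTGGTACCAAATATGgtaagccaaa
CDK10 exon of 103 bases: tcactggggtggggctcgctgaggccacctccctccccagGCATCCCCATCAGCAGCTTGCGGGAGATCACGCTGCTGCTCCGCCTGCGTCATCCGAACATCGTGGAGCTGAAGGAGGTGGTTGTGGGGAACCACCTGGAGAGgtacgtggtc
The GC content of these exons was 41.0%, 54.1% and 62.1%, and that of the MCL1 exon 45.2%. None of the 4 lengths is a multiple of 3.

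Other genes that the study names followed MCL1 in retention. CDC25B, a phosphatase that activates cyclin-dependent kinases, had a mean boundary PSI of 33.9% to 37.2% in WT cells (median 35.1%) and 11.2% to 12.6% in Y36C cells (median 11.8%), against 5.72% and 6.24% under DMSO (limma, adjusted p = 4.59e-12). Of its 31 boundaries 29 were lower. All 3 of its tested skipping junctions were higher, and the annotated one across an exon of 123 bases went from 16.4% ± 4.56 to 31.2% ± 3.64. EIF4A1, the helicase of the translation initiation complex eIF4F, shares most sites with a readthrough gene, and of 24 boundaries tested 21 were lower and 0 higher, with median PSI of 26.2% in WT and 1.33% in Y36C cells. SF3B1 itself was retained little, from 4.53% to 6.29% in WT cells (median 5.13%) and from 2.34% to 2.5% in Y36C cells (median 2.42%), and 45 of its 48 boundaries were lower (gene value, limma, adjusted p = 2.6e-07).

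PHF5A could be judged at only a few sites. At 6 of its 8 boundaries mean PSI was at most 1.14% in every group, and spliced reads of the introduced PHF5A cannot be told apart from those of the cells' own transcript. The gene value of 20.8% ± 2.00 in WT and 7.26% ± 2.09 in Y36C cells rests on a pair of alternative donors. At chr22 position 41864023 boundary PSI was 94.6% to 98.9% in WT cells (median 97.4%) and 18.2% to 71.4% in Y36C cells (median 50.8%), with DMSO means of 38.0% and 41.2%. At position 41864458 it was 40% to 84.6% (median 71.1%) and 0 to 20% (median 0). Both were lower in Y36C cells without overlap (limma, adjusted p = 8.62e-06 and 0.000247). The boundary at position 41864458 was at 0 in some Y36C samples and entered the test through WT cells alone.

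For each gene, boundary PSI was averaged over the boundaries at sites of that gene alone, at least 4 of them, before testing. Of 9113 genes 5914 had a lower mean in Y36C cells (64.9%) and 1406 a higher one (15.4%), and at 65.8% the 6 WT and 6 Y36C values did not overlap. A mean above 50% was found in 944 genes in WT and in 119 in Y36C cells under drug. Over all genes the median of the difference was -5.20 percentage points, from a median level of 13.1% in WT to 4.84% in Y36C cells. The corresponding DMSO medians were 3.41% and 3.17%.

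**Figure D2:**
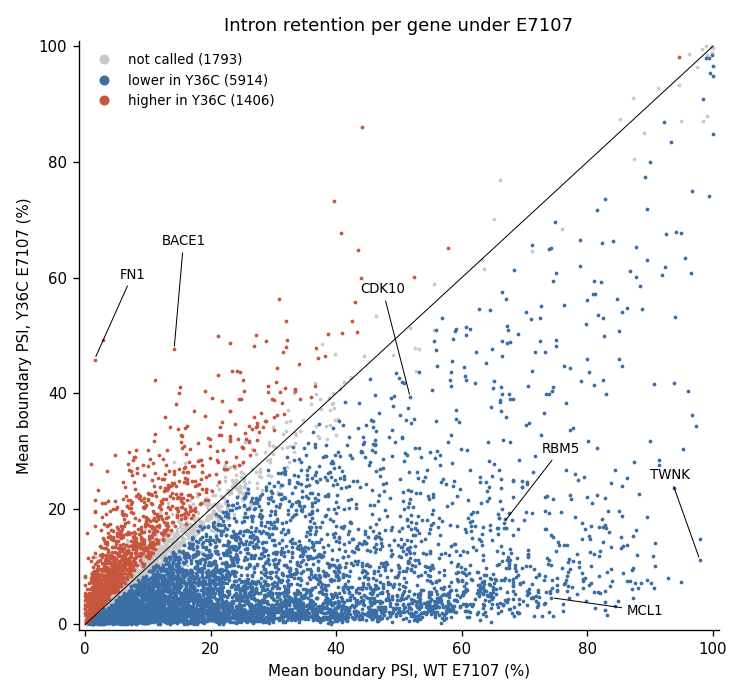
Mean boundary PSI per gene in WT (x axis, %) and Y36C cells (y axis, %) under E7107, one point per gene, mean of 6 samples each, with the line of equality. Blue points (5914) were called lower and red points (1406) higher in Y36C cells; TWNK and MCL1 lie at the lower right, and FN1 and BACE1 at the upper left.

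The largest decreases took genes from nearly full retention to near the drug-free level. TWNK, the helicase of the mitochondrial DNA replisome, had 97.6% to 98.3% in WT cells (median 98.0%) and 10.3% to 11.9% in Y36C cells (median 11%), against 8.59% and 8.11% under DMSO. The difference was -86.8 points (limma, adjusted p = 8.18e-15), the largest among genes with at least 6 boundaries. NR1H2, the liver X receptor beta, followed with means of 90.2% and 7.11%. The transcription factor TFAP4 had 87.4% and 4.62%, and POLR1C, a subunit shared by RNA polymerases I and III, 89.5% and 7.69%. CCN2, the connective tissue growth factor, had 88.1% and 6.31%. PDRG1, PHF23 and the cleavage stimulation factor subunit CSTF1 completed the 8, with WT means of 84.5%, 87.1% and 84.9% and Y36C means of 3.12%, 6.12% and 4.08%. That the 6 WT values lay above the 6 Y36C values was a condition for choosing these 8 genes.

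The largest increases were smaller and came with DMSO levels between the drug-treated groups. BACE1, the beta-secretase, had 7.67% to 20.6% in WT cells (median 15.4%) and 40.9% to 52.8% in Y36C cells (median 49.3%), and its DMSO means were 34.6% and 36%. The groups did not overlap, which was a condition for choosing the genes of this paragraph (limma, adjusted p = 1.52e-06). In DNASE1, a secreted nuclease, the means were 39.6% ± 14.4 and 73.2% ± 5.10, with 55.4% and 59.6% under DMSO. GLYCTK, glycerate kinase, had 15.2% and 41.1%, TMEM80 23.1% and 48.7% (DMSO 31.1% and 32.6%), CD164L2 0.944% and 27.8% (DMSO 18.7% and 25.3%) and the lncRNA ENSG00000250920 30.8% and 56.2% (DMSO 50.6% and 51.4%). FN1, fibronectin, averaged 1.48% ± 1.28 in WT and 45.8% ± 8.24 in Y36C cells over 21 boundaries, of which only 6 had reads in all 24 samples. GTF2IP4, also among the 8, is a pseudogene with near-identical relatives, so its reads may be misplaced. In 7 of these genes, FN1 left aside, WT cells under drug had less retention than either DMSO group, and the Y36C means were above both.

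Gene lists were read against the shares over all genes (64.9% lower and 15.4% higher, median -5.20 points). Every tested gene of the U2 snRNP subcomplexes SF3a and SF3b was lower, 12 of 12, and so was every tested factor of 3′ splice site recognition, 11 of 11. SF3A2 went from 49.6% ± 2.51 to 3.59% ± 0.217 and CHERP, a U2-associated protein, from 74.1% ± 2.04 to 5.52% ± 0.294. Of the other spliceosomal proteins 40 of 43 were lower, with PRPF40B as the 1 that was higher (6.06% to 21.7%). CLK, SRPK and DYRK kinases, some of which phosphorylate SR proteins, were lower in 7 of 8 (median -32.6 points), led by CLK1 at 79.3% and 7.89% and CLK3 at 69.7% and 7.41%. DYRK4 was the 1 that was higher (11.7% to 17.3%, with overlap between the groups). SR proteins were lower in 11 of 12, and TRA2B fell from 35.7% to 9.65%, below its DMSO means of 10.8% and 10.2%. hnRNP genes were lower in 17 of 20 and higher in 1, HNRNPA2B1 (9.11% to 10.7%).

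**Figure D3:**
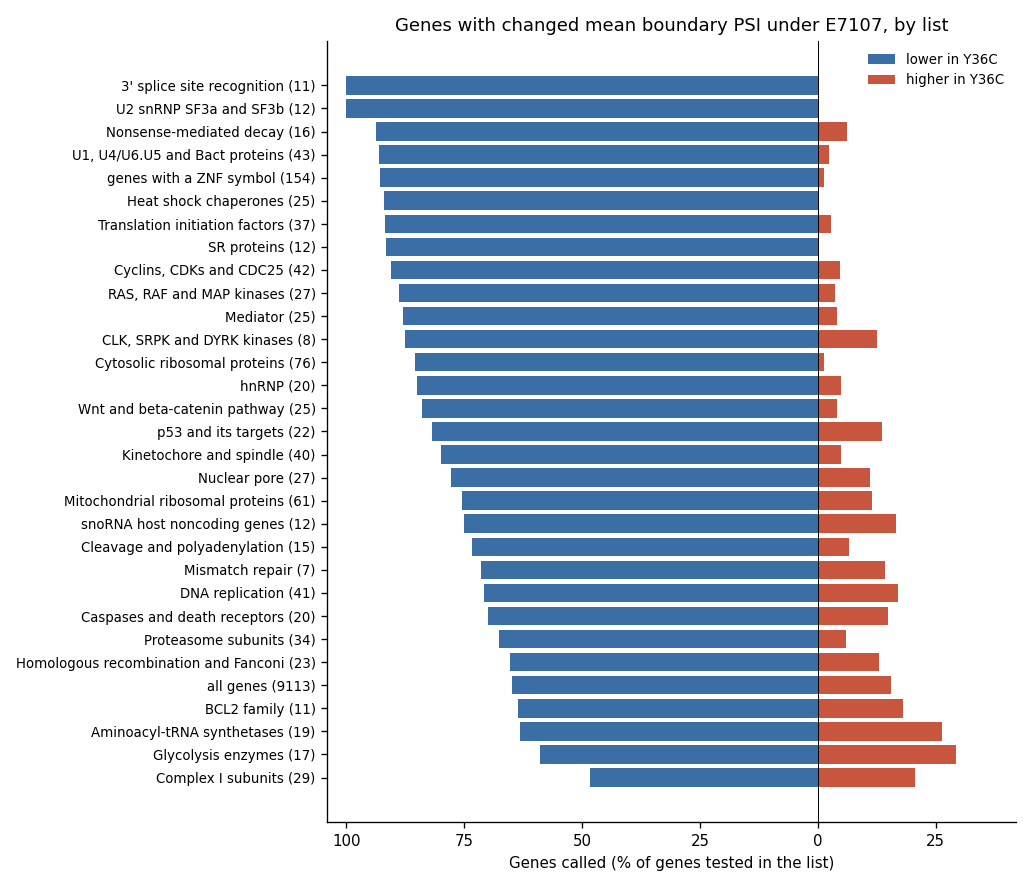
Share of the tested genes of each list whose mean boundary PSI was lower (blue, to the left) or higher (red, to the right) in Y36C than in WT cells under E7107, in percent of the genes tested, whose number stands in brackets. Over all 9113 genes 64.9% were lower and 15.4% higher; complex I subunits had the lowest share of lower genes, 48.3%.

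Cell division genes were lower in most cases, as were 64.9% of all genes. Cyclins, CDKs and CDC25 genes were lower in 38 of 42 and higher in 2 (median -22.7 points), and 16 of the 42 had a WT mean above 50%. CCNL2, a cyclin of splicing-linked kinases, fell from 80.4% ± 1.98 to 14.7% ± 0.714, and CDKN2C, a CDK4 and CDK6 inhibitor, from 79.1% ± 9.43 to 17.5% ± 7.92. CDK18 and CDK5 rose, from 10.3% to 17.1% and from 1.28% to 2.79%. Kinetochore and spindle genes were lower in 32 of 40, among them CDCA8 (73.5% and 11.4%) and INCENP (63.4% and 3.51%), both of the chromosomal passenger complex. DNA replication genes were lower in 29 of 41 (70.7%) and higher in 7 (17.1%), near the shares over all genes. Among them the licensing factor CDT1 went from 81.3% ± 0.923 to 2.93% ± 0.509. POLE2, a subunit of DNA polymerase epsilon, rose from 3.68% to 10.8%, above its DMSO means of 4.52% and 4.83%.

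The lists of BCL2 family genes and of caspases and death receptors had shares of called genes near those over all genes. In the BCL2 family 7 of 11 were lower (63.6%) and 2 higher (18.2%), with a median difference of -18.1 points. BAK1, a pro-apoptotic pore former, fell from 69.2% ± 9.61 to 4.38% ± 1.32, whereas BAX, its relative, rose from 14.6% ± 0.81 to 20.1% ± 1.78 (DMSO 13.2% and 13.1%) and BID from 0.816% to 1.64%. Caspases and death receptors were lower in 14 of 20 (70%) and higher in 3 (15%). The TRAIL receptor TNFRSF10B went from 62.2% to 12.9%, while the adaptor TRADD went from 13.8% to 24.4% and CASP4 from 1.14% to 8.33%. Genes of p53 and its targets were lower more often, in 18 of 22 (81.8%), and higher in 3 (13.6%), with a median difference of -18.4 points. Among them were the nuclease AEN at 87.4% and 9.81% and the kinase PLK3 at 77.0% and 11.3%.

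Lists from signalling and transcription were mostly lower. Zinc-finger genes with a ZNF symbol were lower in 143 of 154 (92.9%) and higher in 2, and their median difference was -29.6 points, from a median of 35.5% in WT to 5.76% in Y36C cells. RAS, RAF and MAP kinases were lower in 24 of 27, such as MAP2K7 (76.9% and 10.8%). Wnt pathway genes were lower in 21 of 25, with CCND1, cyclin D1, at 53.2% ± 1.90 and 3.01% ± 0.240, and LRP5 was the 1 that was higher. Mediator subunits were lower in 22 of 25 and nonsense-mediated decay factors in 15 of 16, where UPF3A was the exception (15.9% to 25.4%). Heat shock chaperones were lower in 23 of 25 and higher in 0, and DNAJB1, an HSP40 co-chaperone, fell from 72.7% ± 1.97 to 1.53% ± 0.267.

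Housekeeping lists ranged from mostly lower to mixed. Cytosolic ribosomal protein genes were lower in 65 of 76 (median -6.10 points) and mitochondrial ones in 46 of 61. Proteasome subunits were lower in 23 of 34 (67.6%, near the share over all genes, median -1.81 points), where PSMD7 went from 55.9% to 7.53%. The smallest median differences were in complex I subunits (14 of 29 lower, 6 higher, median -0.719 points), glycolysis enzymes (10 of 17 lower, 5 higher, -0.955 points) and aminoacyl-tRNA synthetases (12 of 19 lower, 5 higher, -1.33 points). These lists also had low WT medians, 7.28%, 5.72% and 4.48%. Within glycolysis HK2, a hexokinase, fell from 39.2% ± 0.784 to 1.66% ± 0.241, and the glucose transporter SLC2A1 from 37.2% to 1.17%. CARS1, the cysteinyl-tRNA synthetase, rose from 1.71% ± 0.250 to 8.16% ± 0.767, with DMSO means of 4.19% and 3.41%. Noncoding snoRNA host genes, which carry snoRNAs in their introns, were lower in 9 of 12 (median -30.9 points), with SNHG7 at 80.1% and 31.7% and DMSO means of 30.2% and 30.7%.

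Translation initiation factors were lower in 34 of 37 (91.9%) and higher in 1, and nuclear pore genes lower in 21 of 27 (77.8%) and higher in 3. The remaining lists stood nearer the shares over all genes. Cleavage and polyadenylation factors were lower in 11 of 15, mismatch repair genes in 5 of 7, and homologous recombination and Fanconi genes in 15 of 23. Those higher were 1, 1 and 3 in the same order.

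The boundaries with the steepest loss of retention were close to fully unspliced in WT cells. RAB5A, a GTPase of early endosomes, had a donor boundary PSI of 94.0% to 96.9% in WT cells (median 95.8%) and of 0 to 2.06% in Y36C cells (median 0.495%). AFF4, a scaffold of the super elongation complex, had 90.8% to 98.4% (median 98.0%) and 0 to 2.78% (median 0). The transcription factors MAFK, NR1D1 and NR4A1 had WT means of 97.6%, 98.1% and 98.1% and Y36C means of 2.90%, 3.51% and 3.67%. The groups did not overlap at any of the 5 (limma, adjusted p between 3.31e-11 and 2.65e-09). They were chosen for the largest differences with an SD of at most 5 points per group. High WT values, non-overlap and small p-values followed from that choice. RAB5A and AFF4 had a PSI of 0 in some Y36C samples and entered the test through WT cells alone. The DMSO means at these 5 boundaries were between 0 and 4.23%. Another, in the pseudogene SMG1P1, has near-identical copies and is left uncertain. The boundaries with the steepest rise included METTL3, the m6A methyltransferase, at an acceptor with 9.68% to 22.0% in WT cells (median 15.5%) and 74.3% to 80.3% in Y36C cells (median 76.4%), and DMSO means of 52.2% and 52.4%. At LARGE2, a glycosyltransferase of alpha-dystroglycan, a donor boundary had 0 to 11.1% (median 4.15%) and 68.6% to 77.2% (median 70.3%), with DMSO means of 38.5% and 49.0%. LRP5, the Wnt co-receptor, was at 0 in all WT samples and at 50% to 61.5% in Y36C cells (median 55.1%), and its DMSO means were 36.6% and 33.5%. QTRT1, APBA3 and RBCK1 rose alike, from 13.5%, 1.67% and 1.11% to 77.0%, 64.4% and 56.8% (limma, adjusted p of the 6 between 2.81e-11 and 1.50e-06). LARGE2, APBA3, RBCK1 and LRP5 had a PSI of 0 in some or all WT samples and entered the test through Y36C cells alone. The same rule of choice applied to all 6 rises, so non-overlap and small p-values followed from it. At each of these 6 sites the DMSO means lay between the WT and the Y36C values under drug.

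The splice sites of 3 boundaries with the steepest rise and of 3 with the steepest loss are shown with 10 exon and 40 intron bases, the first or last pair of intron bases in capitals, from GRCh37 on the strand of the gene. Higher in Y36C cells were LARGE2 (chr11:45947693-45947742, plus strand, intron of 70 bases, 65.7% GC), METTL3 (chr14:21967272-21967321, minus strand, 168 bases, 35.7% GC) and LRP5 (chr11:68213001-68213050, plus strand, 5656 bases, 51.3% GC).
LARGE2 5′ splice site: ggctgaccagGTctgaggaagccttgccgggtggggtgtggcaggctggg
METTL3 3′ splice site: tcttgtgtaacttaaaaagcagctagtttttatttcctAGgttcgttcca
LRP5 3′ splice site: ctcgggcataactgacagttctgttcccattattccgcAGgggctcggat
Lower in Y36C cells were RAB5A (chr3:19989004-19989053, plus strand, 3284 bases, 39.8% GC), AFF4 (chr5:132269799-132269848, minus strand, 1924 bases, 36.1% GC) and NR1D1 (chr17:38252904-38252953, minus strand, 103 bases, 68.9% GC).
RAB5A 5′ splice site: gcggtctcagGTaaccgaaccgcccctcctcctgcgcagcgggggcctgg
AFF4 5′ splice site: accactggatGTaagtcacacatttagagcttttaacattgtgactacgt
NR1D1 5′ splice site: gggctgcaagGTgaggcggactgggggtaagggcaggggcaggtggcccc
Long and short introns, and GC-rich and GC-poor ones, occurred in both sets.

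Skipping junctions called higher in Y36C cells stood in several relations to the drug-free level. Of 8139 with reads in every sample, all 6 Y36C samples exceeded all 12 DMSO samples at 3355 (41.2%), and the Y36C mean was within 2 points of its DMSO mean at 21.9%. The WT mean was within 2 points of its own DMSO mean at 62.9%, and all 6 WT samples fell under all 12 DMSO samples at 6.16%. In 7 of the 8 junctions with the largest differences, TNRC6A left aside, the WT samples fell under all DMSO samples. TNRC6A, a scaffold of microRNA silencing, skipped an exon of 33 bases at 10% to 20% in WT cells (median 13.7%) and at 63.8% to 68.7% in Y36C cells (median 65.0%), over DMSO means of 21.8% and 23.1%. The groups did not overlap (limma, adjusted p = 1.91e-08), which followed from choosing large differences with small spread. Among spliced reads the TNRC6A shares were 35.2% and 71.3%. FBXW11, a substrate receptor of an SCF ubiquitin ligase, skipped 2 exons at 4.84% ± 3.30 and 77.1% ± 3.13, over 40.6% and 54.8% under DMSO. In ADNP, a homeobox chromatin protein, the means were 11.5% and 79.8%, and 67.3% and 72.1% under DMSO. In ZNF384 they were 29.7% and 90.9%, and 77.9% and 78.2% under DMSO. In each of these 4 the lowest Y36C sample under drug was above the highest DMSO sample. Among spliced reads alone ZNF384 had 86.7% and 92.0%, and most of its difference in PSI was therefore in boundary reads at the same donor. ADNP had 61.3% ± 16.8 and 82.8% ± 2.67 among spliced reads, also a much smaller difference than in PSI. FBXW11 had 26.1% ± 16.9 and 78.0% ± 3.69.

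At a further pair the Y36C samples under drug overlapped the DMSO samples. AP1G2, an adaptor subunit of vesicle coats, skipped an exon of 125 bases at 0 to 11.8% in WT cells (median 6.94%) and at 53.6% to 65.4% in Y36C cells (median 61.2%), with DMSO means of 25.6% and 38.1%, a highest DMSO sample of 54.8% and shares among spliced reads of 9.08% and 76.6%. QTRT2, a partner of QTRT1 in making the modified base queuosine in tRNA, skipped an exon of 108 bases at 1.80% to 8.43% in WT cells (median 5.31%) and at 51.2% to 64.0% in Y36C cells (median 58.3%), beside DMSO means of 47.4% and 51.6%. MAGEA2B and ALOX12P2, the remaining junctions of the 8 largest increases, belong to a near-identical gene copy and a pseudogene and are left uncertain.

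The skipping junctions called lower in Y36C cells were for the most part highest in WT cells under drug. Their median was 8.53% in WT and 0.482% in Y36C cells, and 0.0593% and 0.0611% under DMSO. Of 3396 with reads in every sample, 34.3% were at 0 in all DMSO samples, and at 84.0% all 6 WT samples exceeded all 12 DMSO samples. TSPAN5, a tetraspanin, had a junction across 4 exons at 49.6% to 60.9% in WT cells (median 60.1%), at 0 to 2.60% in Y36C cells (median 1.48%) and at 0 in the DMSO samples. THBS1, thrombospondin-1, skipped an exon of 98 bases at 47.8% to 58.1% in WT cells (median 54.1%) and at 0 in all Y36C and DMSO samples. BRD8, a bromodomain protein of a histone acetyltransferase complex, skipped 2 exons at 56.3% ± 4.50 in WT and 2.41% ± 1.80 in Y36C cells, and FRS2, an adaptor of FGF receptors, 2 exons at 56.9% ± 3.40 and 3.77% ± 4.58. The groups did not overlap at any of the 4 (limma, adjusted p between 1.64e-11 and 2.64e-05). These junctions had a PSI of 0 in some or all Y36C samples and entered the test through WT cells alone. They were also chosen for the largest decreases with small spread, so non-overlap and small p-values followed from the choice.

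**Figure D4:**
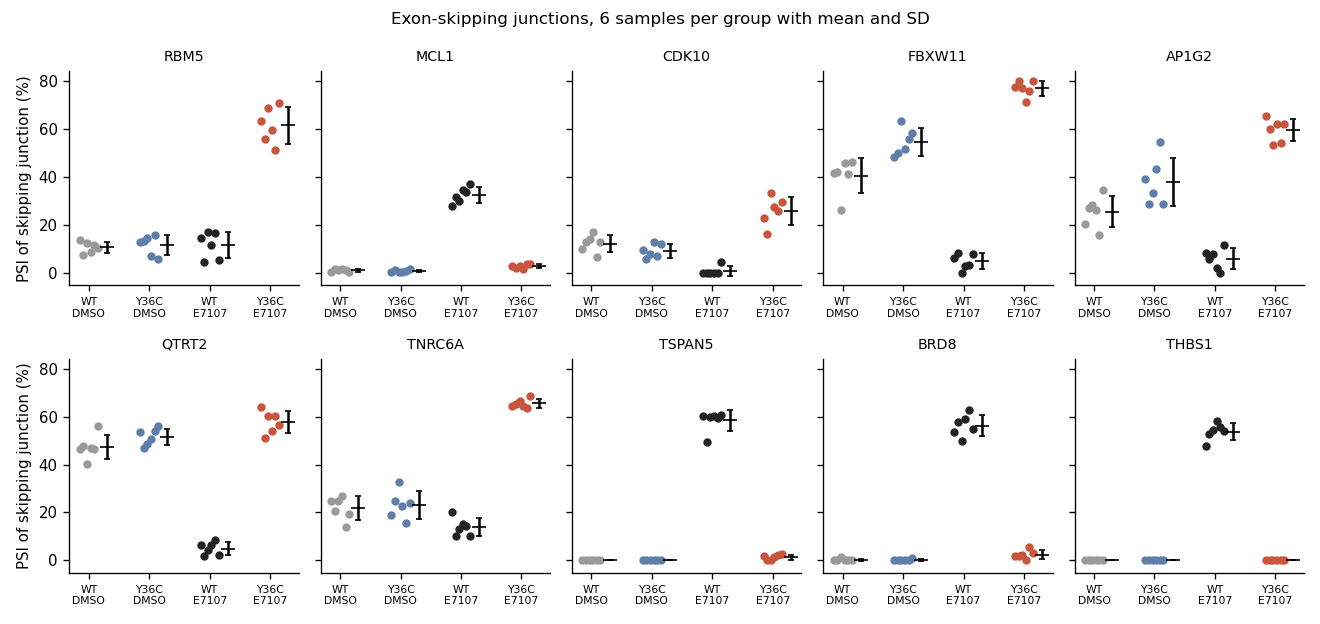
PSI (%) of 10 exon-skipping junctions, each point 1 sample of WT or Y36C cells under DMSO or E7107, with the mean and SD of 6 samples. For RBM5 (exon of 85 bases) and TNRC6A every Y36C sample under E7107 lies above all samples of the other groups, for CDK10 (exon of 73 bases) the Y36C mean of 25.9% does, QTRT2 is low only in WT cells under E7107, and MCL1, TSPAN5, BRD8 and THBS1 are high only in WT cells under E7107.

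The exons of TNRC6A and AP1G2, skipped more in Y36C cells, and of THBS1, skipped less, are printed with the exon in capitals, 40 intron bases before and 10 after, because they mark the opposite ends of the skipping response. They lie at chr16:24807188-24807270 (plus strand), chr14:24035761-24035935 (minus strand) and chr15:39886260-39886407 (plus strand) of GRCh37, and their GC content is 48.5%, 53.6% and 56.1%.
TNRC6A exon of 33 bases: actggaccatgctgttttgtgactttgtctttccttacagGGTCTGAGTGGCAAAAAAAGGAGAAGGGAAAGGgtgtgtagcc
AP1G2 exon of 125 bases: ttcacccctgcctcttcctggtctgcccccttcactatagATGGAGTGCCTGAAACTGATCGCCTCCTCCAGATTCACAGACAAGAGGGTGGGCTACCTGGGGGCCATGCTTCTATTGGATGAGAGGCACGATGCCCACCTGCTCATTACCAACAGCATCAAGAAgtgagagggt
THBS1 exon of 98 bases: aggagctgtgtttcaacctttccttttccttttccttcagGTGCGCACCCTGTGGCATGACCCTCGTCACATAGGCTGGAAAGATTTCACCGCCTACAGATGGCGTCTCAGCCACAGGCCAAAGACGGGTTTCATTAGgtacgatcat

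The skipping junctions of the 2 directions also differed in make-up. Of the unannotated ones, 74.7% of the 4172 higher and 53.5% of the 2583 lower crossed exactly 1 exon, against 68.5% of all 9291 tested. Their median PSI was 0.715% in WT and 6.00% in Y36C cells for those higher, and 6.72% and 0.226% for those lower, with DMSO medians near 1.1% and at 0. Of the annotated ones, 82.0% of 3977 higher and 76.4% of 822 lower crossed 1 exon, with medians of 3.38% and 15.2% and of 21.4% and 5.26%. A single skipped exon had a median length of 100 bases among unannotated junctions called higher and 107 among those called lower.

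Other spliced junctions with the steepest rise belonged to introns that were mostly unspliced in WT cells under drug. ZC3HAV1, an antiviral zinc-finger protein, had a junction at 0 to 6.67% in WT cells (median 2.87%) and at 100% in all Y36C samples, and the AFF4 and MAFK introns above went from 3.50% to 99.5% and from 2.44% to 97.1%. Those with the steepest fall were the partners of boundaries that rose, in QTRT1 (85.5% to 22.8%), METTL3 (79.7% to 24.0%) and LRP5 (100% to 45.2%), and a junction of CIAO1, of the cytosolic iron-sulphur assembly, at 87.9% ± 3.38 and 29.0% ± 4.16. CIAO1 differed among spliced reads as well, at 99.5% and 73.3%, and its DMSO means were 80.5% and 62.4%.

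The retention left in Y36C cells differed by class of intron. In introns under 40% GC, mean boundary PSI was 14.8% ± 1.13 in WT and 4.00% ± 0.091 in Y36C cells, so the rise over DMSO in Y36C cells was 8.21% of that in WT cells. In introns of 55% GC or more the means were 22.8% ± 0.646 and 13.8% ± 0.191, and the rise in Y36C cells was 32.8% of that in WT cells. The genotype difference was -10.8 points in the first class and -8.97 in the second, and the change of this contrast, 1.88 points, exceeded the spread (exact permutation test, p = 0.00216, adjusted p = 0.00253 over 7 contrasts). With medians over boundaries in place of means the contrast turned to -1.65 points (exact permutation test, p = 0.00216), since the medians were 4.54% and 0 under 40% GC and 10.9% and 4.67% at 55% or more. Of the tested boundaries 74.8% were called lower and 6.28% higher under 40% GC, and 51.2% and 18% at 55% or more. Tested were 29868 and 32290 boundaries, next to 68934 and 45474 read in all 24 samples. A boundary at 0 in a Y36C sample was tested only where all WT samples were above 0. The shares called, here and in the intron classes below, therefore depend in part on that filter.

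**Figure D5:**
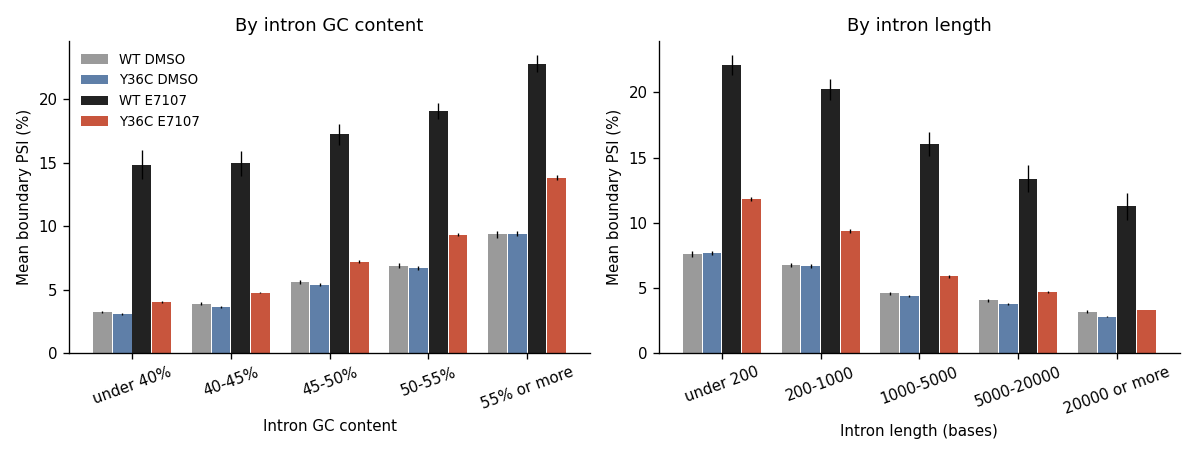
Mean boundary PSI (%) by GC content of the intron (left) and by its length in bases (right) in the 4 groups; bars are means and error lines SDs of 6 samples. The Y36C E7107 bars rise from 4.00% to 13.8% with GC content and fall from 11.8% to 3.30% with length.

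Short introns kept more retention in the mutant than long ones. Under 200 bases the means were 22.1% ± 0.735 in WT and 11.8% ± 0.174 in Y36C cells, and the rise over DMSO in Y36C cells was 28.7% of that in WT cells. At 20000 bases or more the means were 11.3% ± 1.03 and 3.30% ± 0.033, and this share was 6.2%. In points the genotype difference was larger in the short class (-10.3 against -7.97, exact permutation test of the contrast, p = 0.00216, adjusted p = 0.00253). With medians over boundaries the differences were -7.63 and -0.344 points, and the latter no longer exceeded the spread (exact permutation test, p = 0.455). First introns of the canonical transcript went from 19.4% ± 1.03 to 6.29% ± 0.041, a larger difference than in internal introns, which went from 15.2% to 5.62% (-13.2 against -9.59 points, exact permutation test, p = 0.00216, adjusted p = 0.00253). The 716 boundaries of transcripts with a sole intron fell most, from 41.5% ± 0.993 to 13.6% ± 0.140. Donors of the U12 type, read by the minor spliceosome and taken here as A or G followed by TATCCTT at the start of the intron, had 755 boundaries against 198516 at other GT-AG introns. They went from 18.3% ± 0.945 to 10.6% ± 0.316, a smaller difference than at the others (-7.76 against -10.1 points, exact permutation test, p = 0.00216, adjusted p = 0.00253), and 45.3% of those tested were lower against 63.9%. Acceptors with C before the final AG differed less than those with T, by -9.66 and -10.8 points (exact permutation test, p = 0.00216, adjusted p = 0.00253). The values by length and by GC content depended on each other. Within introns under 40% GC, the Y36C mean was 4.71% in those under 200 bases and 2.87% in those of 20000 bases or more, a much narrower range than over all introns, with WT means of 17.7% and 10.1% and Y36C DMSO means of 3.53% and 2.46%. Within introns under 200 bases the genotype difference was -13.0 points under 40% GC and -8.65 at 55% or more, and within those of 20000 bases or more it was -7.18 and -6.92. These differences within classes were not tested, and the other contrasts were not adjusted for GC content or length.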

How the data were processed

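PolyA RNA of 24 HCT116 samples was sequenced. Per the labels and the study's methods, reads were aligned with STAR to hg19, and the authors deposited 1 percent value (PSI) per junction and sample, the share of the raw junction reads at a splice site, with no counts. Each table has 1830076 rows, of which 6433 were left out (mitochondrial or without strand). A site whose rows sum to 0 was taken as missing. Of the junctions, 97.222% had GT and AG at the intron ends in GRCh37, and no pair of samples was identical. Depth is unknown, so no counting error is given.

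PSI was turned into natural log odds with an offset of 1 percentage point and tested with limma on the 12 E7107 samples. Rows at sites that any of the 12 samples lacked were left out, as were rows with a PSI of 0 in 1 or more samples of both groups. P-values were adjusted by Benjamini-Hochberg over all 367408 rows tested, with a threshold of 0.05. A junction listed at both ends was then represented by the end with the smaller p, which left 246080 junctions. No correction was made for that choice of end. Genes were tested on mean boundary PSI over at least 4 boundaries at sites of that gene alone, and the difference between drug and DMSO in 1 limma fit of 24 samples. Means over rows were compared by two-sided exact permutation tests. Exons and genes were from GENCODE v44 lifted to GRCh37. The tests were checked on simulated data.

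Named were genes of the study (some named items are not reported here), the 8 largest decreases and 8 largest increases among genes with at least 6 boundaries, an adjusted p of 0.05 or less and no overlap, the junctions with the largest differences by type (1 per gene, SD of at most 5 points), and up to 2 genes per direction of each list. Members and lists were chosen with earlier results of these data known, and the offset and row filter were taken over from an earlier analysis that had seen the data. Alternatives were other offsets, filters and scales, a replicate block and medians. Samples with the same replicate number did not deviate together (correlations from -0.00196 to 0.00387), so the numbers were not used as pairs. Python 3.11.15, NumPy 2.4.6, pandas 2.3.3, SciPy 1.17.1, pysam 0.24.0, R 4.3.3 and limma 3.58.1 were used.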

Additional observations from a re-analysis of the deposited data

Results flagged for a closer look

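A genotype difference under E7107 that departed from that under DMSO was found for mean boundary PSI (-9.87 points, exact permutation of genotype labels within each treatment, p = 0.0021), for mean skipping PSI (0.517 points, p = 2.34e-05) and for the contrast of GC-rich against GC-poor introns (1.61 points, p = 0.00715), over 853776 splits each.

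A single sample stood apart from the other 5 in 13 of 140 groups checked (9.29%, where chance gives about 5%). Under DMSO these were the highest WT sample for boundary PSI (6.28% against a median of 5.94%), also at 3′ sites (6.68% and 6.32%) and 5′ sites (5.87% and 5.56%), and the highest Y36C sample for unannotated skipping (0.567% and 0.560%) and unannotated 3′ splice sites (0.641% and 0.629%). Among WT cells under E7107 they were the highest sample of the SMG1P1 junction (8.33%), the APBA3 boundary (10%) and the RBCK1 boundary (6.67%), each with a median of 0, and the lowest of the TSPAN5 skipping junction (49.6%, median 60.1%). Among Y36C cells under E7107 they were the RBCK1 boundary (62.5%, median 56.0%), the AFF4 junction (lowest 97.2%, median 100%), the AFF4 boundary (2.78%, median 0) and the MAGEA2B skipping junction (87.6%, median 82.4%).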

How the results depend on the processing

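Of 88 alternative values, 74 kept their direction and their side of the threshold, with counts within 1.5 times the main one. Requiring a difference of at least 10 points left 6968 higher boundaries, 1343 lower and 3037 higher skipping junctions, 9361 lower other junctions, 702 acceptors with more skipping and less retention, and 3478 lower and 225 higher genes. A mean PSI of at least 5% left 2193 lower skipping junctions and 1407 such acceptors, and it moved the mean boundary difference to -15.0 points, the skipping difference to 2.42 and the GC contrast to 5.87. The first of these is a stricter call rule and the second a filter under which fewer junctions entered. With medians over rows the skipping difference was 0 (exact permutation test, p = 1.0) and the GC contrast -1.65 points, a reversed sign, and the cause was not tested. In alternatives chosen after seeing the data, shares among spliced reads left 11743 other junctions higher, and a broader definition of exon skipping gave 5206 lower and 12494 higher.

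With the replicate number as a block, 68024 boundaries were lower and 11944 higher, 5856 genes lower and 1379 higher, and no count moved by more than 1.5 times. The numbers do not pair the samples by the labels, and 2 of 6 samples correlated best with their own number. Sign flips over such pairs gave p = 0.03125 for the 3 means, an exact permutation test whose smallest value this is. Without read counts, the precision of a single PSI value cannot be given.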

Other observations

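More splice sites were without reads in WT than in Y36C cells under E7107: 3620 sites had reads in all 6 Y36C and in 0 WT samples, and 195 the reverse. Of 254719 sites read in all 12 DMSO samples, 1318 had reads in all 6 Y36C samples and in 0 WT samples under drug, and 0 showed the reverse. Of 9683 genes with at least 6 such sites, 307 (3.17%) had a share of read sites at least 50 points lower in WT than in Y36C cells, and 0 the reverse. Genes with a ZNF symbol made up 27 of the 307, which is 12.4% of the 217 measured. Among the largest differences, named after their values were seen, were those of UCP3, a mitochondrial uncoupling protein, IQCC and ZNF596 (each 4.17% ± 10.2 of 8 sites in WT and 100% in Y36C cells) and ASPHD2 (5.56% ± 13.6 and 100%). The tables hold no expression values, so whether these genes had less RNA or shallower sequencing in WT cells was not tested.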
